A study of Mus musculus with 2 samples.

Results

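ATP-binding cassette (ABC) transporter genes that encode pumps of steroids, lipids and organic anions were followed in long-read RNA sequencing of the mouse adrenal gland. They were chosen by gene symbol in the deposited transcript tables, whatever the class of the transcript model: Abcb1b, Abcb1a, Abca1, Abcg1, Abcc1, Abcc4, Abcd3 and Abca5. These are 8 of the 16910 annotated nuclear genes with a read, and 8 of 50 ABC genes taken by symbol. The symbols were Abc with a letter from a to g and a number, without pseudogenes, so ABC genes under other symbols are left out. The 2 libraries came from adrenal glands of female B6CASTF1/J mice, a first-generation cross, aged 2 months, and form 1 group with no second genotype, strain or treatment. The labels call them biological replicates 1 and 2, yet give both the same donor identifier, and the animals are numbered 3 and 4 in one label and 3 in both in another. Differences and p-values therefore compare these 2 libraries, not conditions, and their spread may be technical. Replicate 1 held 1209457 reads of annotated nuclear genes and replicate 2 held 502655, so that 3 reads, taken as the floor of detection, stand for 2.48 and 5.97 CPM, the reads of a gene scaled to a common library size. All listed markers of cortex, medulla, endothelium, macrophages, adipocytes, red blood cells, fibroblasts and capsule, and liver were detected. Of the kidney markers 0 of 4 were detected, and of the lymphocyte markers 1 of 4. The 7 cortex markers together reached 66279 CPM in the first library and 86021 CPM in the second. Cyp21a1 weighs heavily in this difference, with 14022 and 28073 CPM. The median log2 ratio of the 7 markers, replicate 2 over replicate 1, was 0.145. In such whole tissue, fewer cells of a type and less RNA per cell cannot be told apart.

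ABC transporters use the energy of ATP, bound at paired nucleotide-binding domains, to move substrates across a membrane. The products of Abcb1a and Abcb1b are the rodent P-glycoproteins, which extrude drugs and also carry steroids such as glucocorticoids, and a form of this pump has long been known as abundant in the adrenal cortex. Abca1 and Abcg1 pass cholesterol and phospholipid to apolipoproteins and lipoproteins and are targets of the liver X receptors. Abcc1 and Abcc4 export organic anions, including conjugated steroids and, for Abcc4, cyclic nucleotides. Abcd3 encodes PMP70, which brings fatty acyl-CoA into peroxisomes, and Abca5 is a lysosomal and endosomal lipid transporter.

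Abcb1b dominated the group. It had 5115 reads in replicate 1 and 1277 reads in replicate 2, which is 4229 and 2541 CPM (3385 ± 1194 CPM, SD, n = 2), and it ranked 15 among all annotated nuclear genes by mean CPM. Its gene ENSMUSG00000028970.9 lies on the plus strand of chromosome 5, from 8798147 to 8866315 of mouse build mm10. Abcd3 followed with 254 and 65 reads, or 210.0 and 129 CPM (170 ± 57.1 CPM), and its gene lies on the minus strand of chromosome 3, from 121758774 to 121815302. The remaining 6 members had at most 15 reads in either library. Abcb1a lies beside Abcb1b on chromosome 5, from 8660077 to 8748575 on the plus strand. Abcc1 and Abcg1 are also on plus strands, on chromosome 16 from 14361558 to 14475737 and on chromosome 17 from 31057675 to 31117988. Abcc4 and Abca5 are on minus strands, on chromosome 14 from 118482692 to 118706219 and on chromosome 11 from 110269369 to 110337716.

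Abca1 had 13 reads in replicate 1 and 9 in replicate 2 (10.7 and 17.9 CPM). Abcb1a had 15 and 5 reads (12.4 and 9.95 CPM). Abcc4, the cyclic nucleotide and anion exporter, had 8 and 5 reads (6.61 and 9.95 CPM). All of these passed the detection rule of at least 3 reads in each library. Abcc1 had 5 reads and 1 read, Abca5 had 4 and 0, and Abcg1 had 3 and 0, so these 3 members were not detected in both libraries. For Abca5 and Abcg1 the replicate 1 values were 3.31 and 2.48 CPM. A count of 0 in replicate 2 allows up to 7.34 CPM by the exact 95% interval. A difference was thus not detectable at this depth. Ordered by mean CPM, the exact Clopper-Pearson 95% intervals of Abcb1b and Abcd3, and of Abcd3 and Abca1, did not overlap in either library. Every later neighbouring pair, from Abca1 and Abcb1a down to Abca5 and Abcg1, overlapped in both libraries and is not ordered by these data.

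Levels of different genes were also set per kilobase of each gene's first annotated transcript. Whether read counts depend on transcript length in these libraries was not tested. Abcb1b then stood at 982 and 590.0 CPM per kilobase, Abcd3 at 60.2 and 37.1, and Abcb1a at 2.48 and 1.99. On this scale Abcb1b was 16.3 times as high as Abcd3 in replicate 1 and 15.9 times in replicate 2. By reads alone it was 20.1 and 19.6 times as high. Abca1, whose first annotated transcript has 10262 bases, stood at 1.05 and 1.74 CPM per kilobase. Abca1 and Abcb1a had at most 15 reads in either library and no interval was computed on this scale, so it does not order them.

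**Figure D1:**
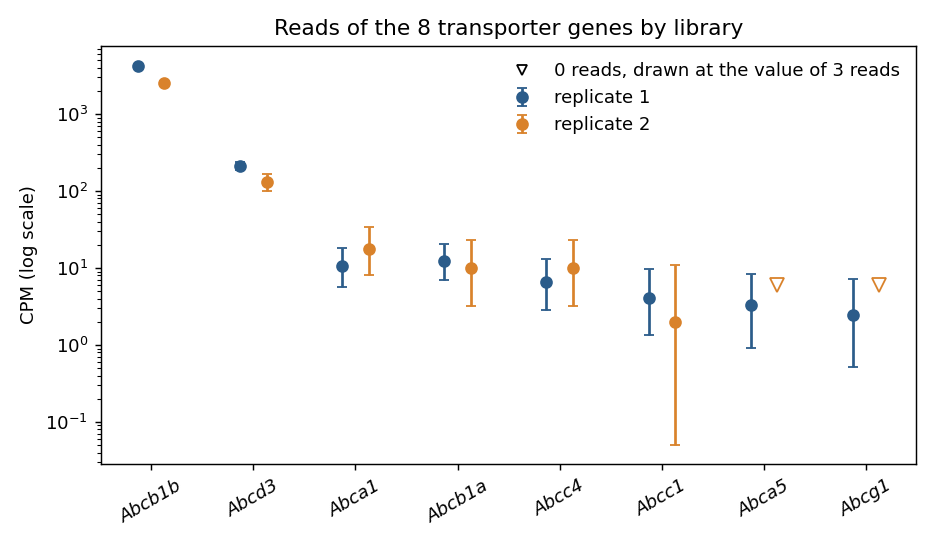
CPM of the 8 genes on a log axis, as 1 point per library with its exact 95% counting interval; open triangles stand for 0 reads and are drawn at the value of 3 reads. Abcb1b sits at 4229 and 2541 CPM, Abcd3 between 129 and 210.0 CPM, and Abca1, the highest of the others by mean, at 10.7 and 17.9 CPM.

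The pair Abcb1a and Abcb1b encodes closely related pumps. Their annotated coding sequences were aligned, while the assignment of single reads was not examined. In the annotated transcripts Abcb1b-201 and Abcb1a-201 both coding sequences have 3828 bases (1276 codons), and 3367 of 3816 aligned bases are identical (88.2%). The longest run of coding bases they share is 338. The first 90 coding bases are shown from the GENCODE M21 transcripts, on mm10, with the bases that differ in capitals, because several incomplete reads of both genes hold the start of the coding sequence and little else.
Abcb1b: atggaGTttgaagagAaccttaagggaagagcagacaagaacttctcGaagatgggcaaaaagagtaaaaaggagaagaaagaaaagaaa
Abcb1a: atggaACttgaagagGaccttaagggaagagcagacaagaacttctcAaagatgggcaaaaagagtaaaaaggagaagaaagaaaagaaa
The 90 bases differ at 4 places. Abcb1a gave 15 reads beside 5115 of Abcb1b in replicate 1, a share of 0.292% (exact Clopper-Pearson 95% interval 0.164 to 0.482), and 5 beside 1277 in replicate 2 (0.390%, 0.127 to 0.908). The intervals of the libraries overlapped. Of the Abcb1a reads, 9 in replicate 1 and 4 in replicate 2 were in the complete 28-exon transcript Abcb1a-201, while 4 reads of replicate 1 held exons 1 and 2 alone. Those short reads contain 65 coding bases of the gene, within the stretch printed above, where all 4 differences lie.

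None of the 5 members with enough reads for a test was called different between the libraries. A call needed a Benjamini-Hochberg adjusted p under 0.05 by Fisher's exact test over 10170 genes and at least a 2-fold difference, which 9.55% of all tested genes met. Abcb1b was 1.66-fold lower in replicate 2 (log2 ratio -0.73, SE 0.045, Fisher's exact test, adjusted p = 5.66e-63). Abcd3 was 1.61-fold lower (log2 ratio -0.69, SE 0.20, Fisher's exact test, adjusted p = 0.0035). Both differences exceed counting error and fall short of the fold threshold. By the adjusted p alone, 2 of 5 members were lower in replicate 2, against 8.58% of all tested genes. These 2 were the only members with 50 reads or more, while the 8.58% covers genes with as few as 10 reads. The 2 shares are therefore not at like depth. Abcb1a (log2 ratio -0.23), Abca1 (0.76) and Abcc4 (0.64) had adjusted p of 0.943, 0.504 and 0.776 by Fisher's exact test. The median log2 ratio was -0.23 over the 5 tested members and -0.06 over all tested genes.

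Cell type markers moved between the libraries as well. Of all 10170 tested genes, 606 were called higher and 365 lower in replicate 2. The 6 medulla markers together stood at 11602 CPM in the first library and 6698 CPM in the second, with Pnmt and Chgb called lower. Red blood cell markers summed to 1153 and 718 CPM and those of fibroblasts and capsule to 507 and 358 CPM, with 1 of 5 called lower. Endothelial, macrophage, adipocyte and lymphocyte markers had sums of 472 and 581, 693 and 734, 4287 and 4510, and 33.9 and 31.8 CPM, with 0 called. The endothelial sum and the median log2 ratio of its tested markers (-0.32) differ in sign, with Plvap at 282 and 416 CPM, while Kdr, Tie1 and Egfl7 had negative log2 ratios. Of the 7 cortex markers 1, Cyp21a1, was called higher in replicate 2, while Nr5a1, the transcription factor of steroid-producing cells, had 1108 and 1216 CPM. The part of these shifts in the levels of Abcb1b and Abcd3 was not tested.

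Most Abcb1b reads were complete copies of 1 transcript. Abcb1b-201, with 28 exons, held 3818 of 5115 reads in replicate 1 (74.6%, 95% interval 73.4 to 75.8) and 1061 of 1277 in replicate 2 (83.1%, 80.9 to 85.1). The share was 8.44 percentage points higher in replicate 2 (Fisher's exact test over 2098 genes, adjusted p = 2.32e-09), which is under the 10 points needed for a call. Among those genes 16.4% were called, and 19.4% were higher in replicate 2 by the adjusted p alone. The only other annotated transcript with a read was Abcb1b-208, with 2 reads in replicate 1. The 23-exon transcript of Abcd3 had shares of 83.9% and 89.2%, which did not pass the test (Fisher's exact test, adjusted p = 0.606).

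The share of 1 incomplete Abcb1b model differed between the libraries. It spans exons 1 and 2 and lacks all later exons. Models of this kind held 598 reads in replicate 1 (11.7%, 95% interval 10.8 to 12.6), 597 of them in 1 model, and 20 reads in replicate 2 (1.57%, 0.959 to 2.41). Without these reads Abcb1b-201 made up 84.5% (83.4 to 85.6) in replicate 1 and 84.4% (82.3 to 86.4) in replicate 2. The level of Abcb1b itself still differed, at 3735 against 2501 CPM. Incomplete models that keep the start of the transcript but stop at 3 exons or more held 3.79% and 3.76% of reads, and those that lack the start made up 3.75% and 4.54%.

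The share of reads that end early was set beside that of other genes. Over 2098 genes, those that had 50 reads or more in both libraries, the median share of reads in models that keep the start and lack the end was 0.0892% in replicate 1 and 0% in replicate 2. Abcb1b had 15.5% and 5.32%, a share reached or exceeded by 34 and 35 of the 2098 genes. For models of 2 exons alone, 6 genes reached the Abcb1b share in replicate 1 and 26 in replicate 2, with Abcb1b itself among them.

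**Figure D2:**
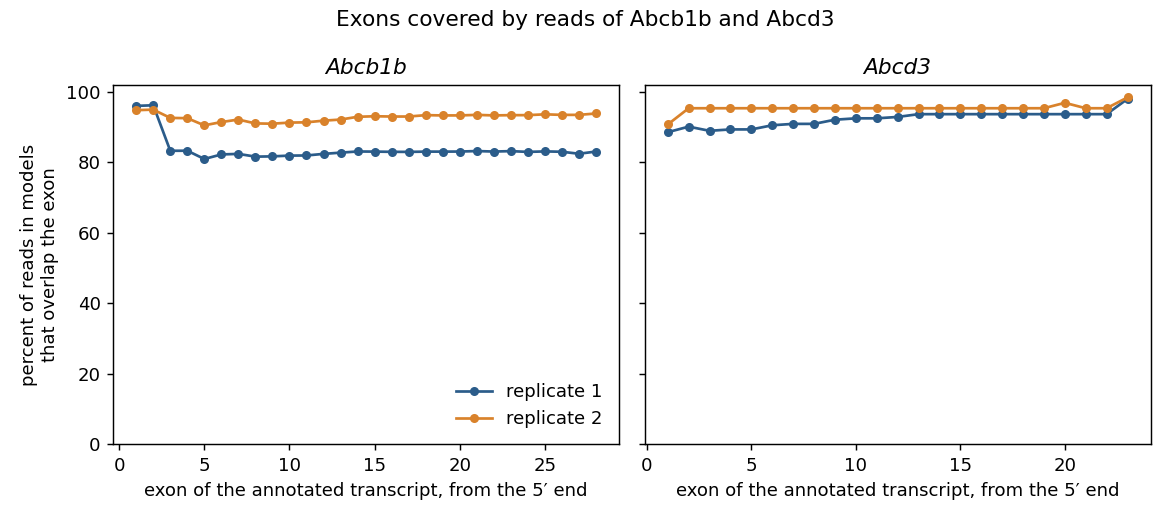
Percent of the reads of Abcb1b (left) and Abcd3 (right) in models that overlap each exon of the annotated transcript, numbered from the 5′ end, with 1 line per library. In replicate 1 the Abcb1b line steps from 96.2% at exon 2 to 83.3% at exon 3, while in replicate 2 it goes from 95.0% to 92.6%.

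Along Abcb1b the difference between the libraries began at exon 3. Exon 2 of Abcb1b was overlapped by 96.2% of reads in replicate 1 and 95.0% in replicate 2, and exon 3 by 83.3% and 92.6%. From exon 3 to exon 28 the share stayed between 81.0% and 83.3% in replicate 1 and between 90.5% and 93.9% in replicate 2. Some unspliced reads stopped nearby. A single-exon model from 8798147 to 8799812, which runs through intron 1 and ends in intron 2, held 54 and 8 reads. In replicate 2 the model of exons 1 and 2 ended at this same base, 8799812, whereas in replicate 1 it ended with exon 2 at 8798806. Model ends are those of the deposited models and need not be the end of each read.

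Other incomplete Abcb1b models recurred at low counts. Among those that keep the start, a model of exons 1 to 4 held 51 reads in replicate 1 and 19 in replicate 2, and a model of 6 exons held 41 and 16. The 9 models that lack the start and reached 3 reads in both libraries all ran to exon 28. The model from exon 12 held 16 and 5 reads, that from exon 13 held 20 and 4, that from exon 14 held 17 and 9, and that from exon 25 held 15 and 4. The models from exons 4, 6, 7, 10 and 18 held between 4 and 13 reads in replicate 1 and between 3 and 5 in replicate 2. All coding bases of Abcb1b-201 were covered in 75.7% of Abcb1b reads in replicate 1 (74.5 to 76.8) and 84.7% in replicate 2 (82.6 to 86.6). Bases inserted between them were not examined, so these shares do not show an intact reading frame.

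Some Abcb1b reads left out a whole exon. Counting only junctions that leave out 1 exon, 6 of the 26 internal exons were skipped in at least 1 read of each library. Longer skips were seen in few reads, of which a model without exons 3 to 8 held 6 reads in replicate 1 and 1 in replicate 2, and a model without exons 4 to 6 held 2 in each. Exon 5, of 58 bases, was skipped most: 64 reads joined exon 4 to exon 6 in replicate 1 against 4095 that kept exon 5 (1.54% skipping, 95% interval 1.19 to 1.96), and 12 against 1140 in replicate 2 (1.04%, 0.539 to 1.81). The intervals overlapped between libraries. The sequences across the usual and the skipping junctions are shown with the first 15 bases of the downstream exon in capitals, because they are what separates the forms.
Exon 4 to 5: gcattactaatcaaaGTGGACCCAACAGTA
Exon 4 to 6: gcattactaatcaaaATACGCCTACTATTA
Exon 26 to 27: gactcactgcctgatAAATACAACACCAGA
Exon 26 to 28: gactcactgcctgatGTTGTCCAGGAAGCG
The skipping intron of exon 5 (chromosome 5, 8806171 to 8812654) is annotated in Abcb1b-203 and Abcb1b-208, both of the nonsense-mediated decay class. With exon 5 left out of Abcb1b-201 the reading frame shifts and meets a stop in exon 6 after 106 codons. Exon 27, of 147 bases, was skipped by 29 reads in replicate 1 (0.685%, 0.460 to 0.983) and 2 in replicate 2 (0.168%, 0.0204 to 0.606), with overlapping intervals. Exon skipping was not tested between the libraries, and overlap of intervals does not show that they are equal. Removal of exon 27 keeps the frame and takes out 49 of the 1276 codons, and the joining intron (8861631 to 8865749) is annotated in the protein-coding Abcb1b-206.

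Skipping of exons 4 and 26 is not in the annotation as an intron, although both use annotated splice sites. Exon 4 was skipped by 8 reads in replicate 1 and 5 in replicate 2 (0.194% and 0.437%), and its loss of 163 bases brings a stop after 44 codons. Exon 26 was skipped by 8 and 3 reads (0.191% and 0.253%), and its 207 bases hold 69 codons in frame. For both exons the counting intervals of the libraries overlapped.

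A further set of new Abcb1b junctions used a splice donor 3 bases upstream of the annotated one. Reads of this kind ended exon 12 early in 10 reads of replicate 1 and 2 of replicate 2, exon 16 in 11 and 6 reads, exon 23 in 2 and 2, and exon 25 in 10 and 6. The junctions are shown with the last 3 bases of the upstream exon in capitals, since those are the bases that the shorter form lacks.
Exon 12 to 13: cccctggagggcGTGgtcagtatcgacgga
Exon 16 to 17: atgaaagaggctGTGgatgaagatgtgcct
Exon 25 to 26: atggctggatcaGTGtttctagatggcaaa
In each case the 3 bases start with GT, so that the longer intron also starts with GT, the usual first bases of an intron. Over the 27 exons of Abcb1b that are followed by an intron, 4 end in 3 bases that start with GT, and all 4 had such reads in both libraries. The other 23 exons had no reads that end 3 bases early. At acceptors the same held on a smaller scale: 1 of 27 exons, exon 11, starts with GAG, and it alone had reads that start 3 bases late (2 in replicate 1 and 1 in replicate 2). These forms lose 1 codon's length each and made up 33 and 16 reads at donors in replicates 1 and 2. Other small donor shifts occurred too, such as 4 bases downstream at exon 12 (2 and 3 reads) and 3 bases downstream at exon 27 (4 and 2 reads). How far the alignment or the models prefer introns that start with GT is not known here. The 4 against 23 exons is therefore a description and not a test. Whether these shifted forms arise in the RNA or in the alignment was not tested.

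Upstream of Abcb1b the RefSeq promoter entry of build GRCm38.p6 was used, whose start site lies at 8798147. Models that start at this base held 1089 reads in replicate 1 and 148 in replicate 2. The annotated Abcb1b-201, with 3818 and 1061 reads, begins 39 bases further in. These starts are those of the deposited models, so the counts do not show where single reads began. The 250 bases before the start site, chr5:8797897-8798146 on the plus strand, are shown for the most abundant member, with matches to the searched motifs in capitals.
Abcb1b promoter: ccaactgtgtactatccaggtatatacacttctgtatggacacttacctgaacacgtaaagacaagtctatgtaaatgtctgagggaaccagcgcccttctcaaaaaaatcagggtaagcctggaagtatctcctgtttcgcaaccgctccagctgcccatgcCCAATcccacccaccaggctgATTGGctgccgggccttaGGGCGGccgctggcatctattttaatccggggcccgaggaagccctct
On both strands the search covered the TATA box (TATAAA), the CCAAT box, the GC box (GGGCGG), the E-box (CACGTG) and the core of the cAMP response element (TGACG). It also covered the half-site bound by Nr5a1 (AAGGTCA) and the direct repeat bound by liver X receptors, which can overlap that half-site. CCAAT matched once on each strand and GGGCGG matched once. Of 32851 promoter entries of the same length, 33.8% held CCAAT and 32.7% held GGGCGG, so neither is rare. No match was found for the other 5 motifs in this window. Of the 8 members, 6 had a promoter entry, and of the Abcb1a, Abcd3, Abca1, Abca5 and Abcc4 entries only that of Abca1 held TATAAA, which 12.4% of all entries hold.

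Most Abcd3 reads were complete as well. Its annotated transcript with 23 exons held 213 of 254 reads in replicate 1 and 58 of 65 in replicate 2, and the last exon was overlapped by 98.0% and 98.5% of reads. Exon 1 was overlapped by 88.6% and 90.8%, and incomplete splice matches that keep the start and lack the end held 0 of 254 and 0 of 65 reads, which allows up to 1.44% and 5.52% by the exact 95% interval. A few reads of other classes kept the start and lacked the end: in replicate 1 the annotated 2-exon transcript Abcd3-206 held 3 and a single-exon model of exon 1 held 2, and in replicate 2 a new model that ends in exon 20 held 1. A single-exon model of the last exon held 11 and 2 reads. Another first exon was used by a model that is new in catalog, with 3 reads in replicate 1 and 2 in replicate 2. It starts at 121814909, the second RefSeq start site of the gene, and its intron (chromosome 3, 121796486 to 121814719) is annotated in Abcd3-202. A further first-exon intron of Abcd3 from 121796486 to 121814195 had 2 reads and 1 read. No new Abcd3 junction reached 3 reads in each library.

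**Figure D3:**
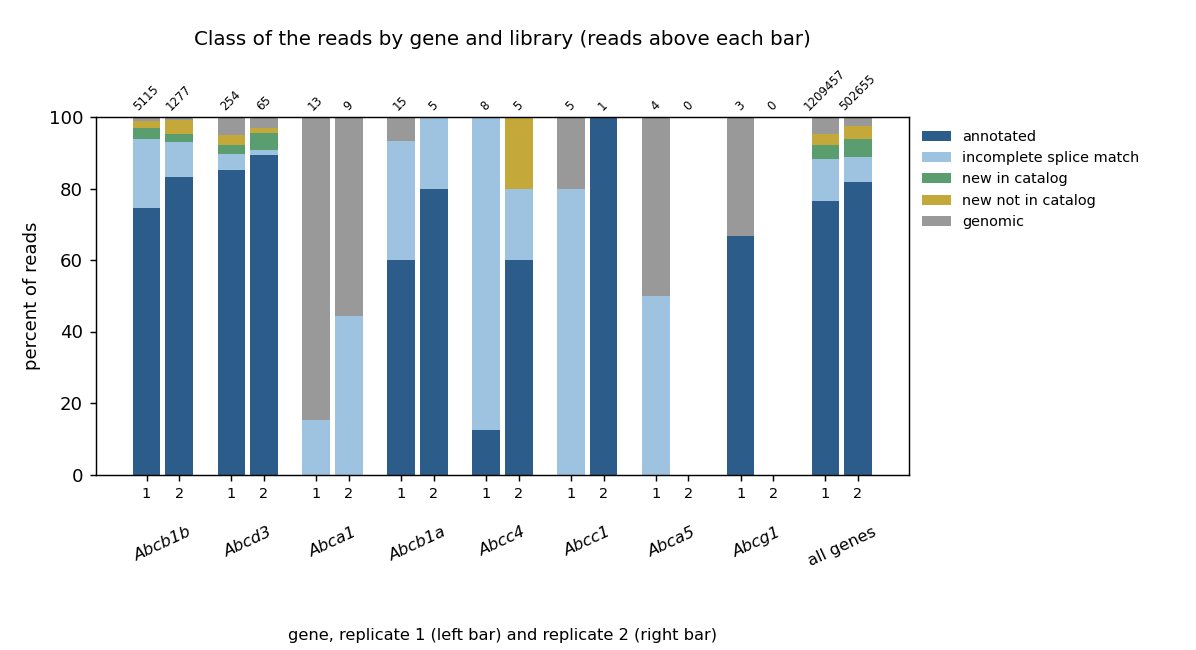
Percent of each gene's reads by the class of the deposited model, with replicate 1 as the left and replicate 2 as the right bar, the number of reads above each bar, and all annotated nuclear genes at the right. Annotated models hold 74.7% and 83.1% of Abcb1b reads and none of the Abca1 reads.

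Across the 8 members, annotated transcripts held 4048 of 5417 reads in replicate 1 (74.7%, 95% interval 73.5 to 75.9) and 1127 of 1362 in replicate 2 (82.7%, 80.6 to 84.7). All annotated nuclear genes had 76.5% and 81.8%. Incomplete splice matches, whose introns are a part of an annotated chain, held 18.8% and 9.77% of the members' reads and 11.6% and 7.08% of all reads. The sums mostly show Abcb1b, which gave 5115 and 1277 of these reads. Without it the annotated share was 75.5% (70.2 to 80.2) and 77.6% (67.3 to 86.0). Intron chains that are new or incomplete, with incomplete splice matches counted among them, recurred between libraries for Abcb1b. Of these chains, 56 of 144 in replicate 1 and 56 of 74 in replicate 2 were found in the other library, and 17 had at least 3 reads in each. For Abcd3 it was 2 of 20 and 2 of 4, and for the other members 0. By single junctions, 5 of the 86 Abcb1b junctions outside Abcb1b-201 had at least 3 reads in each library.

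Abca1, the exporter of cholesterol to apolipoprotein A-I, had no read in an annotated transcript. Of its 13 reads in replicate 1, 7 lay in a single-exon model of the last exon, 4 in a single-exon model of exon 1 and intron 1, and 2 in incomplete models that end in exon 30. Replicate 2 had 3 reads in the last exon, 2 in exon 1 and intron 1, and 4 in incomplete models that began in exons 34, 36, 39 and 40 and ran to the last exon, exon 50. No read of either library overlapped exons 2 to 9 or 31 to 33. The level of Abca1 therefore rests on pieces of the gene, which lies on the minus strand of chromosome 4 from 53030787 to 53159895.

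On the opposite strand of Abca1 more reads were counted than on its own, within counting error of an even split. Models antisense to the gene, all of them new genes in the deposited files, held 24 reads in replicate 1, a share of 64.9% of both strands (95% interval 47.5 to 79.8), and 15 in replicate 2 (62.5%, 40.6 to 81.2). Most lay between exons 1 and 4. A single-exon model from 53137050 to 53140231, in intron 2, held 8 reads and 1 read. Models on the other side of the same base, 53137050, held 5 reads (from 53134879) and 6 reads (from 53131823). Antisense models bounded by 53065901, the last base of exon 30 in transcript direction, had 2 reads in each library, and the incomplete sense models of replicate 1 ended at that very base. Likewise, the sense model of exon 1 and intron 1 in replicate 1 ended at 53157449, the base where 2 antisense models of that library meet. Whether these shared bases reflect the RNA or the library preparation was not tested.

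Abcg1, which exports cholesterol to lipoproteins, showed the same order of strands, with 3 sense and 8 antisense reads in replicate 1 and 0 and 3 in replicate 2. On chromosome 17, 1 antisense model of each library lay inside the last exon of Abcg1, from 31114488 to 31115116 with 8 reads in replicate 1 and from 31114488 to 31116394 with 2 reads in replicate 2. The remaining antisense read of replicate 2 lay from 31065212 to 31066089. Of the sense reads, 2 were in the complete transcript of 15 exons and 1 lay within the last exon, in a model that starts at 31115116, which is also a boundary of the antisense model of replicate 1. The share of antisense reads was lower at Abcb1b, with 8 beside 5115 (0.156%) and 1 beside 1277 (0.0783%). It was also lower at Abcd3, with 1 antisense read in each library (0.392% and 1.52%).

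**Figure D4:**
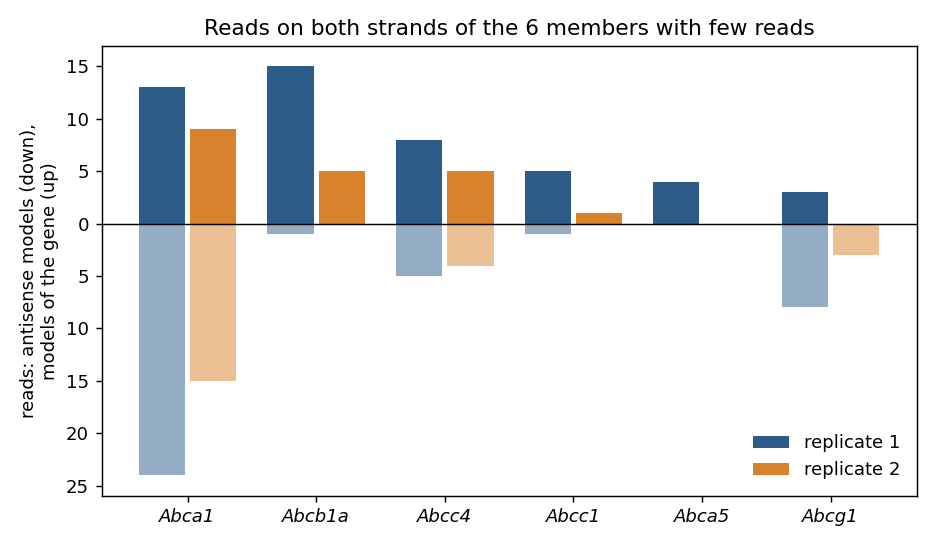
Reads of the gene (upward bars) and reads of models on the opposite strand of the same locus (downward, paler bars) for the 6 members with few reads, by library. Abca1 and Abcg1 have more antisense than sense reads in both libraries, at 24 against 13 and 15 against 9 for Abca1.

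The anion exporters gave few complete reads. Abcc4 had 1 read of its complete 31-exon transcript in replicate 1 and 3 in replicate 2, while 6 of its 8 reads in replicate 1 kept the start and lacked the end. A single-exon antisense model over the first exon of Abcc4 (chromosome 14, 118706036 to 118707595) held 5 reads in replicate 1. In replicate 2 a model from 118706219 to 118707760, which touches the gene at 1 base and was classed as intergenic, held 1 read. Abcc1 had 1 complete read of its 31-exon transcript, in replicate 2, and its 5 reads in replicate 1 all overlapped the last exon. Abca5, on chromosome 11, had 4 reads in replicate 1, of which 1 ran from exon 1 to exon 28, 1 from exon 15 to the last exon and 2 lay in the last exon. The start of Abcb1a-201 lies at 8660077, which is 92986 bases downstream of the RefSeq start site at 8567091. No Abcb1a model of either library began at that RefSeq site.

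Within the ABC family Abcb1b held most reads. Of the 50 ABC genes taken by symbol, 35 had a read and 26 were detected. Abcb1b gave 5115 of 6764 family reads in replicate 1 (75.6%, 74.6 to 76.6) and 1277 of 1850 in replicate 2 (69.0%, 66.9 to 71.1). The next genes were Abcf1 and Abcf2, whose products act in translation and transport nothing, at 204 ± 24.5 and 203 ± 0.249 CPM. Abcb8 of the mitochondrial inner membrane stood at 109 ± 20.6 CPM, Abcf3 at 108 ± 4.53 CPM and Abce1, a ribosome recycling factor, at 77.2 ± 7.82 CPM. The median log2 ratio over the 27 tested genes of the family was -0.23.

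Genes that work with the members were described by list. Of 18 liver X receptor genes and targets, Abca1 and Abcg1 among them, 14 were detected and 14 tested, with a median log2 ratio of 0.65. Of these, 3 were called higher in replicate 2 and none lower, beside 606 higher and 365 lower of all 10170 tested genes. Scd1, a fatty acid desaturase, had 229 and 889 CPM in the 2 libraries, Fasn, the fatty acid synthase, 343 and 949 CPM, and Nr1h3, which encodes LXR alpha, 26.5 and 85.5 CPM (Fisher's exact test, adjusted p = 7.87e-70, 2.57e-48 and 1.38e-05). Apoe, an acceptor of exported lipid, and the lipoprotein lipase Lpl stood at 2220 ± 23.1 and 699 ± 285 CPM and were not called. By the adjusted p of Fisher's exact test alone, Lpl (log2 ratio 0.86) and the receptor gene Nr1h2 (0.54) were higher in replicate 2, and Srebf1 (-0.81) and Apoc1 (-0.54) were lower, with adjusted p of 1.13e-18, 0.025, 0.00011 and 0.0038. The LXR targets Abcg5 and Abcg8 had 0 reads and 1 read in all.

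Of 13 partners of cholesterol efflux, 12 were detected and 12 tested, with a median log2 ratio of 0.00. Of these, 2 were called higher and 1 lower, beside 606 and 365 of all 10170 tested genes. Soat1, which esterifies cholesterol for storage, had 346 and 949 CPM, and Lipa, the lysosomal acid lipase, 94.3 and 332 CPM. Apoa1, the apolipoprotein that accepts lipid from Abca1, had 36.4 and 7.96 CPM (Fisher's exact test, adjusted p = 7.52e-48, 2.70e-23 and 0.0064). Scarb1, the lipoprotein receptor, had the highest level of the list at 2912 ± 218 CPM. The 3 liver markers differed in the same direction as Apoa1, with sums of 144 and 61.7 CPM and Alb called lower in replicate 2. Their part in the Apoa1 value was not tested.

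The peroxisomal genes around Abcd3 did not pass the call. Of 23 genes of peroxisomal import and beta-oxidation, Abcd3 included, 22 were detected and 22 tested, with a median log2 ratio of 0.07. None was called, beside 9.55% of all tested genes. The highest levels on the list were those of Scp2, a sterol carrier and thiolase, at 541 ± 8.62 CPM, of Pex16 at 427 ± 37.8 CPM and of the import receptor Pex5 at 364 ± 64.3 CPM. The related genes Abcd2 and Abcd4 had 24.4 ± 7.65 and 27.5 ± 7.91 CPM.

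Not all regulators of efflux were detected, and none was called. Of 14 listed symbols, 13 were in the annotation, and the absent 1 is a second symbol of a listed gene. Of these genes 9 were detected and 9 tested, with a median log2 ratio of 0.04, and 0 were called, beside 9.55% of all tested genes. Nr5a1 stood at 1162 ± 76.1 CPM, the cAMP-responsive modulator Crem at 146 ± 9.69 CPM and Rdx, which anchors membrane proteins to actin, at 127 ± 53.0 CPM. Rdx was lower in replicate 2 by the adjusted p of Fisher's exact test alone (log2 ratio -0.87, adjusted p = 0.0016). Nfe2l2 was higher by the same test (log2 ratio 0.91, adjusted p = 0.0058). The xenobiotic receptors Nr1i2 and Nr1i3 had 0 reads and 2 reads in all. Of 12 other carriers of steroids and organic anions, 2 were detected, tested and not called, with a median log2 ratio of 0.61. These were Slco3a1 at 48.7 ± 1.32 CPM and Slco2b1 at 19.7 ± 11.5 CPM, and the next by level, Slco4a1, had 1 read and 4 reads.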

How the data were processed

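Long-read RNA sequencing of 2 adrenal gland libraries was used. Per the deposited readme files, the authors' read counts per transcript model come from filtered alignments on build mm10 with the GENCODE M21 annotation, and the deposited counts are whole numbers without normalization. The labels' protocols point to an ENCODE document on long-read analysis, version 3.0. For the aligner and platform, details were not given in the sources used here. Model classes are those of the deposited tables.

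Counts of all classes were summed per annotated gene and scaled to CPM over annotated nuclear genes, without spike-ins and mitochondrial genes. New models were matched between libraries by their introns. Where both libraries together gave 10 reads or more, a gene was tested with Fisher's exact test, two-sided (SciPy 1.17.1), with log2 ratios after adding 0.5 reads. edgeR and DESeq2 need replicates within groups and served for scaling factors only (edgeR 4.0.16, DESeq2 1.42.0). Transcript shares were tested where each library gave 50 reads or more. Intervals are exact Clopper-Pearson 95% intervals and, like the floor of 3 reads, cover counting error only. Coding sequences were aligned with Biopython 1.88. The scripts' tests were tested on simulated data.

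Named were the 8 members with their 3 most abundant models and every repeated new model, the 6 other ABC genes with the highest mean CPM, and the 3 highest and any called genes of each list. Some genes that this rule covers are not reported here. Abcg5, Abcg8, Abcd2, Abcd4, Nr1h2, Srebf1, Apoc1, Plvap, Kdr, Tie1, Egfl7, Nfe2l2, Nr1i2 and Nr1i3 were named after their values were seen. Members and lists were chosen with earlier results of these data known. Alternatives covered scaling, read minimums, added reads, transcript classes, a trend with length and GC content, thresholds and leaving out a library.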

Additional observations from a re-analysis of the deposited data

How the results depend on the processing

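No paired analysis was possible because the 2 libraries form 1 group. No member was called under any of the alternatives in scaling, read minimum, added reads, class of model or trend with length and GC content. Calling by the adjusted p of Fisher's exact test alone gave 2 members (Abcb1b and Abcd3) instead of 0, and 1 main transcript share (Abcb1b) instead of 0. The log2 ratio of Abcb1a turned from -0.228 to 0.0922 with annotated transcripts alone. In an alternative chosen after seeing the data, leaving out the model of exons 1 and 2 turned the difference in the share of Abcb1b-201 from 8.44 to -0.118 percentage points. Weighting each member equally lowered the share of reads in annotated transcripts from 78.7% to 53.0%. With at least 10 reads in each library 13 ABC genes were detected instead of 26. Leaving out 1 library gave summed levels of the 8 members from 2710 to 4479 CPM, annotated shares from 74.7% to 82.7% and Abcb1a shares from 0.292% to 0.390%. Over all genes, shares called within annotated transcripts alone numbered 14 of 1661, against 345 of 2098. The few reads of Abca1, Abcg1, Abcc1, Abcc4, Abca5 and Abcb1a limit every statement on them.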
